A study of Rattus norvegicus with 27 samples.

Results

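Hair follicle mRNAs were present at high levels in laser captures of the neonatal rat parotid, a serous salivary gland that makes no hair. The 10 genes described here, of 14217 genes with a single symbol on the array, were chosen by their values on these same arrays, and all 14 probe sets annotated to them are given, of 31042 probe sets tested. They are 3 genes of the inner root sheath (Tchh, Krt25 and Krt71), 5 genes counted with the hair shaft (Krt86, Krt33b, Krtap1-5, S100a3 and Mt4) and 2 transcription factors (Lhx2 and Msx2). Because the choice used their course over age, levels and differences of these genes are descriptions and carry no test.

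Acinar cells of Sprague Dawley rats were captured before birth (E18 and E20, in days of gestation), at birth (P0), and 2, 5, 9, 15, 20 and 25 days after it (P2 to P25), with 3 arrays per age from separate litters and 27 arrays in all. The labels name no transgene and no treatment, and the groups differ by age. According to the study's methods heads halved in the sagittal plane, which also hold skin, muscle and cartilage, were sectioned through P5. The dissected gland was sectioned from P9 on. The study reports that caps were inspected by microscope and that only pure captures were kept. Its stained images of E20 and P25 captures are described as free of appreciable duct cells and connective tissue. Values are log2 robust multi-array average (RMA) values of Affymetrix rat expression arrays, and a difference of 1 is a doubling. Array medians lay between 5.91 and 6.13.

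A hair follicle is an inward growth of the epidermis whose matrix cells, at the base, divide and feed concentric layers. The inner root sheath moulds the growing shaft and hardens first, through trichohyalin (Tchh) and its own keratins, among them Krt25 and Krt71. The shaft fills with hard keratins such as Krt86 and Krt33b, which are cross-linked by cysteine-rich keratin-associated proteins such as Krtap1-5, while S100a3, a calcium-binding protein, marks the cuticle around it. Mt4 is a metallothionein of stratified squamous epithelia. Lhx2 and Msx2 are homeobox factors of the follicle bud and the matrix.

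The acinar label and the arrays that stand apart bear on all that follows. The mean log2 value of 10 parotid secretory product genes was 4.09 to 6.48 at E18 to P0, 8.62 to 9.55 at P2 and P5, 9.41 to 9.97 at P9 and 10.91 to 13.19 at P15 to P25, so acinar products were on all the arrays that carried hair mRNAs. Replicate 1 of E18, E20 and P0 and replicate 2 of P5 had mean values of 9.42, 9.01, 8.44 and 10.01 over 19 markers of the epidermis between follicles, against 4.90 to 7.74 on the other 23 arrays. Values of the 10 genes at P2, P5 and P9 are given array by array, and several list results are also given without these 4 arrays. In captured tissue, fewer cells of a type and less RNA per cell cannot be told apart.

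The promoters of the structural genes are shown because the genes appear together on the same arrays. Of the 10 genes, 9 matched the RefSeq promoter table (build GRCr8). The 120 bases upstream of the annotated start are printed 5′ to 3′ for 6 of them, with TATAAA on the gene's strand in capitals.
Tchh (chr2:181786989-181787108, plus strand): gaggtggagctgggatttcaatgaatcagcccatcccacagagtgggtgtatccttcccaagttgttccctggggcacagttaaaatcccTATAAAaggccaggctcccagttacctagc
Krt25 (chr10:84771198-84771317, minus strand): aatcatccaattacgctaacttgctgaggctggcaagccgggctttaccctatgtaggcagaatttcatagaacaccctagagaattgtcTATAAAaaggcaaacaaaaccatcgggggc
Krt71 (chr7:134761034-134761153, minus strand): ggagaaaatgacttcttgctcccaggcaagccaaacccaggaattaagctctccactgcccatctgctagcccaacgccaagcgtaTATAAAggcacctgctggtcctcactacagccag
Krtap1-5 (chr10:85039857-85039976, minus strand): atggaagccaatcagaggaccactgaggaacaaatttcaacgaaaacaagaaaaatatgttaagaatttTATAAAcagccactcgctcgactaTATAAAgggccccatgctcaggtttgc
Mt4 (chr19:10871832-10871951, minus strand): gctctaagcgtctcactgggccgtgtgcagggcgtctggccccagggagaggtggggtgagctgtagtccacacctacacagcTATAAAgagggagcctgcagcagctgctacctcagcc
S100a3 (chr2:178384393-178384512, plus strand): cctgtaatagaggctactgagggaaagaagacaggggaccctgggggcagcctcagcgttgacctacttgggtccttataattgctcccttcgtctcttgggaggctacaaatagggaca
TATAAA was searched on both strands of the 250 upstream bases. It began 30 bases upstream of the start in Tchh and Krt25, 34 in Krt71, 27 in Krtap1-5 and 37 in Mt4. In Krt33b it lay 90 bases upstream. S100a3, Lhx2 and Msx2 had none in this window. Thus 5 of 9 promoters had a forward TATAAA beginning 40 to 21 bases upstream, against 1.5% of 27457 promoters, and 6 of 9 had it on either strand anywhere in the window, against 13.09%. TTTATG was found in 2 of 9 promoters and in 11.24% of all, and CTTTGAA in 1 of 9 and in 4.63% of all, each on either strand. The search used 1 annotated start per gene. For Krt25, Krt71, S100a3 and Lhx2 that start lies inside the annotated gene, and other starts were not searched. The letters are a description of the sequence and do not show a site in use.

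Tchh, the granule protein that cross-links sheath keratins, was low at both ends of the series and high between them. Its values at E18 to P0 were 2.64 at the lowest, 3.13 at the median and 4.37 at the highest. They were 9.59, 11.19 and 9.00 at P2, 10.43, 6.07 and 11.34 at P5, and 11.75, 9.98 and 7.42 at P9. At P15 to P25 the lowest, median and highest values were 2.62, 3.15 and 4.63. All 9 arrays of P2, P5 and P9 lay above all 18 others, with replicate 2 of P5 the lowest of the 9. P2 and P5 averaged 9.60 ± 1.95 (SD, n = 6 arrays) and E18, E20 and P0 3.23 ± 0.54 (SD, n = 9), a difference of 6.37 ± 0.65 (standard error of the fit). At E18 to P0 the probe set stood at percentiles 3.1 to 26.5 of its array, close to the lowest values an array gives, so no fold is read from this difference.

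Krt25, a type I keratin of the sheath, followed the same arrays. It ranged from 3.90 to 4.99 at E18 to P0 with a median of 4.18. It measured 11.17, 12.57 and 8.43 at P2, 11.93, 5.73 and 12.90 at P5, and 12.36, 11.03 and 9.29 at P9. Its range at P15 to P25 was 4.45 to 5.54 with a median of 4.87. Here too the 9 neonatal arrays stood above the other 18, although replicate 2 of P5 exceeded the highest P15 to P25 value by little. The difference of P2 and P5 from E18, E20 and P0 was 6.19 ± 0.77, from E18 to P0 values at percentiles 19.7 to 36 of their arrays.

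Krt71, the type II partner keratin of the sheath, differed from the other sheath genes in its starting level. At E18 to P0 its lowest, median and highest values were 6.55, 7.73 and 8.33. It measured 9.52, 11.52 and 10.89 at P2, 11.11, 7.29 and 11.59 at P5, and 11.16, 9.36 and 7.94 at P9. At P15 to P25 it lay between 3.97 and 5.53. Of the 9 neonatal arrays 7 lay above all others, and replicate 2 of P5 and replicate 3 of P9 lay within the range of E18 to P0. At E18 to P0 this probe set stood at percentiles 56.6 to 80.6 of its array, above the percentiles of Tchh and Krt25. Every P15 to P25 array lay below every E18 to P0 array for Krt71, a separation seen in 3.12% of all probe sets. Its difference of P2 and P5 from E18, E20 and P0 was 2.80 ± 0.54, and that of P15 to P25 from P2, P5 and P9 was -5.19 ± 0.48.

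**Figure D1:**
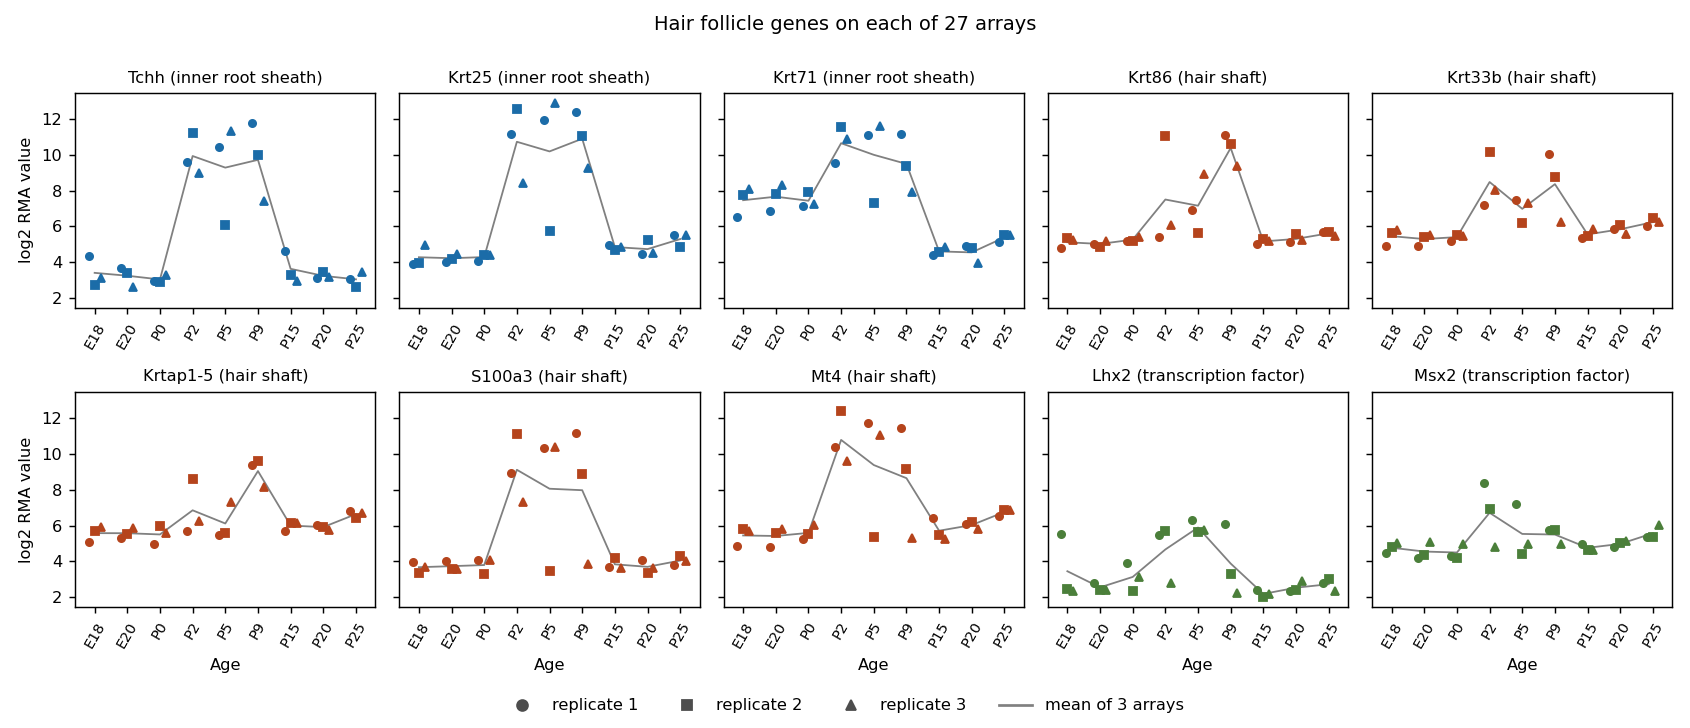
Log2 RMA values (y) of the 10 hair follicle genes against age (x), 1 probe set per gene, with 3 arrays per age as separate symbols and the line through the age means. Tchh and Krt25 are higher on every array of P2, P5 and P9 than on any array of the other ages. Krt71 is lower at P15 to P25 than at E18 to P0, and the square of P5 (replicate 2) is the lowest of its age in all 3 sheath genes. Krtap1-5 averages 6.12 at P5 and 6.64 at P25, and Lhx2 is at 5.56 on replicate 1 of E18 and at 2.26 on replicate 3 of P9.

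The shaft keratins rested on fewer arrays. Krt86, a hard keratin of the cortex, lay between 4.79 and 5.40 at E18 to P0 and between 5.02 and 5.69 at P15 to P25. It measured 5.40, 11.04 and 6.07 at P2, 6.93, 5.64 and 8.90 at P5, and 11.12, 10.63 and 9.38 at P9. All 3 arrays of P9 were high, whereas at P2 only replicate 2 was above 7 and at P5 only replicate 3. Krtap1-5, a high-sulphur protein of the cortex, measured 5.70, 8.62 and 6.24 at P2, 5.46, 5.59 and 7.30 at P5, and 9.36, 9.62 and 8.15 at P9. Its highest value was 5.97 at E18 to P0 and 6.81 at P15 to P25. The arrays that were high for Krtap1-5 were those that were high for Krt86. The difference of P2 and P5 from E18, E20 and P0 was 2.19 ± 0.59 for Krt86 and 0.93 ± 0.36 for Krtap1-5. Leaving out replicate 2 of P2 gave 1.31 for Krt86 and 0.49 for Krtap1-5.

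Krt33b, another cortical hard keratin, has 1 probe set of its own and 2 that are annotated also to Krt31, Krt34 and Krt33a, so that the last 2 cannot be assigned to a single gene. Its own probe set measured 7.22, 10.17 and 8.05 at P2, 7.49, 6.16 and 7.30 at P5, and 10.07, 8.74 and 6.27 at P9. It lay between 4.92 and 5.79 at E18 to P0 and between 5.35 and 6.46 at P15 to P25. The 2 shared probe sets (1380628_at and 1394140_at) parted from each other. The probe set 1380628_at measured 3.30, 10.34 and 5.16 at P2, 6.24, 4.25 and 8.48 at P5, and 11.05, 9.59 and 9.17 at P9, the order of arrays seen for Krt86. The probe set 1394140_at measured 8.53, 11.02 and 8.69 at P2, 7.04, 4.20 and 8.21 at P5, and 9.80, 8.91 and 4.47 at P9. Replicate 1 of P2 and replicate 3 of P9 were thus high in one and at the base in the other.

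S100a3 and Mt4 were high on the arrays that were high in the sheath genes, apart from replicate 3 of P9. S100a3 measured 8.93, 11.12 and 7.29 at P2, 10.35, 3.45 and 10.37 at P5, and 11.17, 8.90 and 3.85 at P9. Its values ran from 3.28 to 4.06 at E18 to P0 and from 3.36 to 4.33 at P15 to P25, so replicate 2 of P5 and replicate 3 of P9 were at its base. Mt4 measured 10.36, 12.38 and 9.60 at P2, 11.70, 5.38 and 11.06 at P5, and 11.43, 9.18 and 5.32 at P9. The same 2 arrays were at the base of Mt4, which lay between 4.83 and 6.01 at E18 to P0 and between 5.22 and 6.87 at P15 to P25. The differences of P2 and P5 from E18, E20 and P0 were 4.85 ± 0.95 for S100a3 and 4.59 ± 0.81 for Mt4.

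The transcription factors were nearer to background. Lhx2, a factor of the follicle bud and of follicle stem cells in the mouse, measured 5.49, 5.70 and 2.81 at P2, 6.33, 5.62 and 5.73 at P5, and 6.09, 3.29 and 2.26 at P9. Replicate 1 of E18 reached 5.56, within that range, although its Tchh value was 4.37, while the highest P15 to P25 value was 3.05. Replicate 2 of P5, which was low in the structural genes, was not low in Lhx2. Msx2, a factor of the hair matrix, has 3 probe sets that disagree. The probe set 1371292_at measured 8.40, 6.94 and 4.81 at P2, 7.20, 4.42 and 4.98 at P5, and 5.74, 5.78 and 4.98 at P9, and 1391953_at measured 6.99, 8.55 and 4.73 at P2, 8.61, 5.56 and 7.79 at P5, and 7.74, 3.92 and 4.59 at P9. The probe set 1369880_at stayed between 3.66 and 5.00 on these 9 arrays, beside 3.33 to 3.96 at E18 to P0 and 3.89 to 4.75 at P15 to P25. The difference of P2 and P5 from E18, E20 and P0 was 2.23 ± 0.54 for Lhx2, and for Msx2 1.52 ± 0.42 by 1371292_at, 3.28 ± 0.59 by 1391953_at and 0.48 ± 0.17 by 1369880_at.

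Counted over probe sets, all 9 neonatal arrays exceeded the other 18 for Tchh and Krt25, and 7 of 9 did so for Krt71, Krt86, Krt33b, both shared probe sets, S100a3 and Mt4. The number was 5 for Krtap1-5 and Lhx2, and 3, 5 and 1 for the Msx2 probe sets 1371292_at, 1391953_at and 1369880_at. Of all 31042 probe sets, 161 (0.519%) had 5 or more neonatal arrays above the other 18, and since the genes were chosen by this course nothing is read from the share.

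Sheath and shaft genes were set side by side as differences from each gene's own mean over E18, E20 and P0. The sheath mean (Tchh, Krt25 and Krt71) was 5.43 ± 1.20 at P2, 4.81 ± 3.02 at P5 and 5.03 ± 1.77 at P9 (SD, n = 3 arrays each). The mean of Krt86 and Krtap1-5 was 1.83 ± 2.32 at P2, 1.29 ± 1.30 at P5 and 4.37 ± 0.82 at P9. The mean of 4 shaft genes (Krt86, Krt33b, Krtap1-5 and S100a3) was 3.03 ± 1.95 at P2, 2.13 ± 1.68 at P5 and 3.99 ± 1.82 at P9. The sheath genes were thus already high at P2. Krt86 and Krtap1-5 stood highest at P9, whereas the own probe set of Krt33b averaged 8.48 at P2 and 8.36 at P9, and the shared probe set 1394140_at averaged 9.41 at P2 and 7.73 at P9. The sheath mean exceeded the cortex pair by 3.59 ± 1.31 at P2, by 3.52 ± 2.18 at P5 and by 0.66 ± 1.07 at P9. It exceeded the mean of the 4 shaft genes by 2.39 ± 0.88, 2.69 ± 1.38 and 1.04 ± 0.38 at the same ages, so the narrowing at P9 was smaller over the 4 genes than over the pair. P9 is also the first age prepared by dissection, so age and preparation cannot be told apart.

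The balance differed between single arrays. On replicate 1 of P2 the sheath mean was 5.09 and that of S100a3 and Mt4 was 5.03, while the cortex pair was at 0.21. Replicate 1 of P5 was alike, with 6.15, 6.41 and 0.85. On replicate 3 of P9 the sheath mean of 3.21 and the cortex pair at 3.42 were about equal, with S100a3 and Mt4 at -0.03. Replicate 2 of P5 had 1.36 for the sheath, -0.20 for S100a3 and Mt4 and 0.27 for the cortex pair. On this array Tchh and Krt25 were above their base, and Krt86, Krtap1-5, S100a3 and Mt4 were not above their highest P15 to P25 values.

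**Figure D2:**
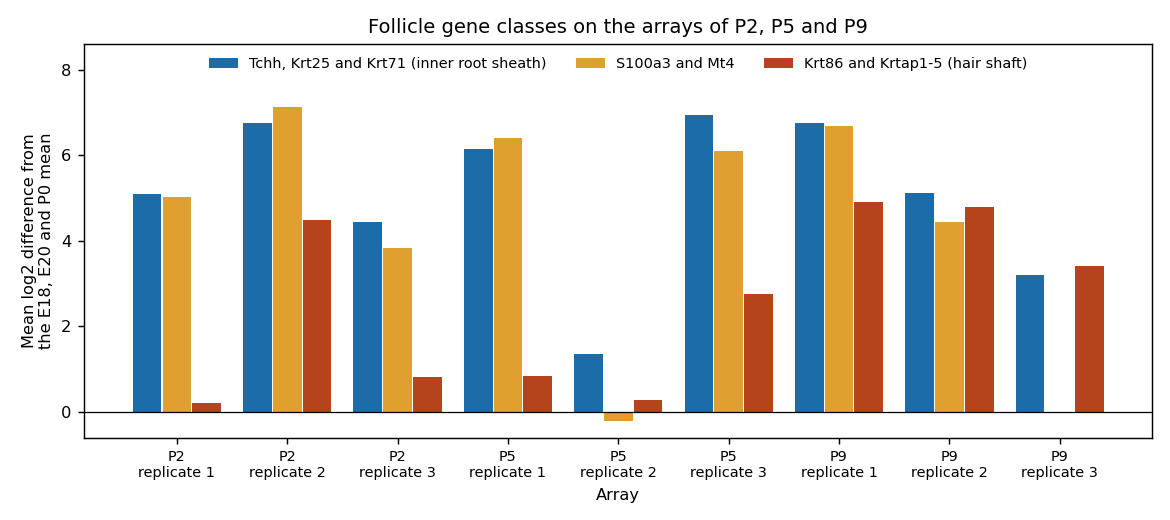
Mean log2 difference from the E18, E20 and P0 mean (y) on each of the 9 arrays of P2, P5 and P9 (x), for Tchh, Krt25 and Krt71, for S100a3 and Mt4, and for Krt86 and Krtap1-5. The first bar is above 4 on 7 of the 9 arrays, the cortex pair is below 1 on P2 replicates 1 and 3 and on P5 replicates 1 and 2, and S100a3 and Mt4 are at -0.03 on P9 replicate 3.

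Across the 9 neonatal arrays, which share amplification and age structure, Pearson's r between Tchh and Krt25 was 0.939, between Tchh and S100a3 0.977, and between S100a3 and Mt4 0.976. Krt86 and Krtap1-5 had an r of 0.949, and Krt86 and 1380628_at 0.987. Krt86 was less like the sheath set, with an r of 0.548 with Tchh and 0.432 with S100a3. Other shaft keratin probe sets were closer to it, since r with Tchh was 0.756 for Krt33b and 0.85 for 1394140_at, and r of 1394140_at with S100a3 was 0.864 and with Mt4 0.863. The division thus ran through the shaft keratins, with Krtap1-5 and 1380628_at beside Krt86, and Krt33b between them. These values describe 9 arrays and carry no test.

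P9 was set against P2 and P5 gene by gene. Krt86 averaged 10.38 ± 0.90 at P9 (SD, n = 3) and 7.33 ± 2.22 at P2 and P5 (SD, n = 6), a difference of 3.05 ± 0.80. Krtap1-5 averaged 9.04 ± 0.78 at P9 and 6.48 ± 1.24 at P2 and P5, a difference of 2.56 ± 0.49, and 1380628_at differed by 3.64 ± 0.96. The other cortical probe sets differed by less, by 0.63 ± 0.59 for Krt33b and by -0.22 ± 0.84 for 1394140_at. For Tchh, Krt25, Krt71, S100a3 and Mt4 the differences were 0.11 ± 0.87, 0.44 ± 1.04, -0.83 ± 0.73, -0.61 ± 1.27 and -1.43 ± 1.08, with standard errors about as large as or larger than the differences except for Mt4. In this comparison limma called 0.0644% of all probe sets higher and 0.058% lower at an adjusted p below 0.05.

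At P15 and later the structural genes were far below their neonatal highs. Tchh and S100a3 were close to their E18 to P0 levels, Krt71 was below its own, and several others were slightly above theirs. Relative to P2, P5 and P9, the difference at P15, P20 and P25 was -6.33 ± 0.58 for Tchh, -5.64 ± 0.69 for Krt25, -2.98 ± 0.53 for Krt86, -2.06 ± 0.39 for Krt33b, -1.15 ± 0.32 for Krtap1-5, -4.52 ± 0.85 for S100a3, -3.43 ± 0.72 for Mt4 and -2.33 ± 0.48 for Lhx2. For Msx2 the difference was -0.81 ± 0.37 by 1371292_at, -3.15 ± 0.53 by 1391953_at and -0.03 ± 0.15 by 1369880_at. Set against P9 alone, which was prepared in the same way, the difference was -6.41 ± 0.82 for Tchh and -5.02 ± 0.75 for Krt86. It was -2.86 ± 0.46 for Krtap1-5 and -0.40 ± 0.53 for Msx2 by 1371292_at. No P15, P20 or P25 array exceeded 4.63 for Tchh or 5.69 for Krt86. RMA values carry no detection call, so the files do not show whether any transcript was left. The mean at P15 to P25 was above that at E18 to P0 by 0.07 for Tchh, 0.12 for S100a3, 0.23 for Krt86, 0.49 for Krt33b, 0.63 for Krtap1-5, 0.68 for Mt4 and 0.69 for Krt25, beside a median of 0.16 over all probe sets, and for Krt71 the difference was -2.67. At P25 all 3 arrays lay above the highest E18 to P0 value for Mt4 (6.55 to 6.87, against 6.01), Krtap1-5 (6.42 to 6.81, against 5.97), Krt33b (6.05 to 6.46, against 5.79) and Krt86 (5.48 to 5.69, against 5.40). The mean of the 4 shaft genes at P25 was 0.68 ± 0.07 above base (SD, n = 3), against 3.99 at P9. The comparisons between ages share arrays with one another and are not independent.

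Differences from base are taken from the mean over E18, E20 and P0, so averages near base at these ages follow from the definition. On no array of these ages was a structural gene near its highest neonatal value. Krt71 stood above its P15 to P25 values, and replicate 1 of E18 was raised in Lhx2 (5.56) and in 1391953_at of Msx2 (5.95). P0 differed from E18 and E20 by -0.29 ± 0.87 for Tchh, 0.04 ± 1.04 for Krt25, 0.19 ± 0.80 for Krt86 and 0.09 ± 1.27 for S100a3, in a comparison where 0.0354% of all probe sets were called higher and 0.00966% lower. The 3 embryonic and newborn arrays that were high in epidermis markers had sheath means of -0.07, -0.15 and -0.28 from base.

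Markers of the epidermis between follicles were raised on most hair-bearing arrays, and much more on 4 arrays that carried little or no hair mRNA. The mean of the 19 markers was 6.20 to 7.74 on 6 of the other 8 neonatal arrays and 5.48 and 5.43 on replicate 3 of P2 and of P9, against 5.10 to 5.86 on the other 6 arrays of E18 to P0 and 4.90 to 5.52 at P15 to P25. Genes of the list differed. Krt1 and Krt10, the keratins of the suprabasal epidermis, named here after their values were seen, measured 13.34 and 13.01 on replicate 2 of P5, where Krt25 was 5.73. On the other 8 neonatal arrays Krt1 lay between 3.97 and 6.04 and Krt10 between 5.25 and 8.09. Krt1 was 13.45, 13.20 and 12.62 on replicate 1 of E18, E20 and P0, and Tchh on these arrays was at most 4.37. Dsg1, a desmosomal cadherin of upper epidermis, was high on more of these arrays, at 7.88, 8.79 and 3.14 at P2, 9.28, 10.77 and 9.83 at P5 and 6.97, 4.09 and 5.16 at P9. Sprr1a, a cornified envelope protein, was also high on most arrays that carried hair mRNAs, at 8.99, 11.60 and 4.34 at P2, 9.19, 11.79 and 12.03 at P5 and 11.44, 10.72 and 4.06 at P9. The part of other tissue in the hair values was not tested.

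**Figure D3:**
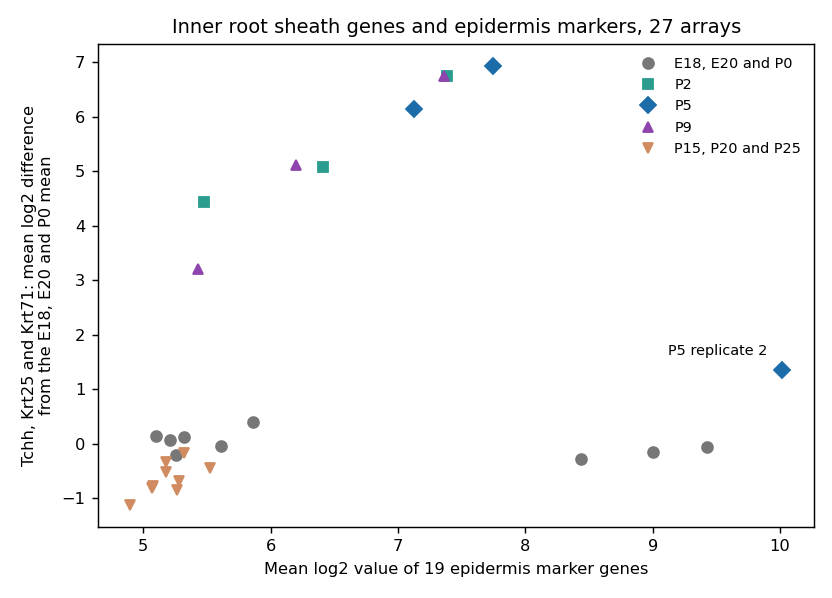
Mean log2 difference of Tchh, Krt25 and Krt71 from their E18, E20 and P0 mean (y) against the mean log2 value of 19 epidermis markers (x), 1 point per array. The 4 arrays highest in epidermis markers, at 8.44 to 10.01, have sheath means of -0.28 to 1.36, and the other 8 arrays of P2, P5 and P9 have 3.21 to 6.94 at epidermis values of 5.43 to 7.74.

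Skeletal muscle markers also varied between these arrays. Their mean over 10 genes was 12.09 on replicate 3 of P9, where Krt86 was 9.38 and Mt4 5.32, and 5.22 on replicate 3 of P2, where Krt86 was 6.07 and Mt4 9.60. It was 8.15 and 10.61 on replicate 1 of P2 and of P5, which both had sheath mRNAs with little Krt86. On replicate 3 of P5 it was 10.75, where Krt86 was 8.90 and Mt4 11.06. On the remaining neonatal arrays it was 5.96 (replicate 2 of P2), 6.96 (replicate 2 of P5), 8.53 and 9.07 (replicates 1 and 2 of P9). Replicate 1 of E18, E20 and P0, with Tchh at most 4.37, had 11.62, 11.72 and 11.04. The part of muscle in the hair values was not tested.

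Other follicle genes, which the choice did not use, were tested on the whole array with limma. The lists were written with earlier results of these data known. Of the other sheath genes 3 of 10 were measured (Padi1, Padi3 and Tgm3, enzymes that modify and cross-link trichohyalin), of the other shaft genes 1 of 14 (Krt36), and 3 further keratin-associated proteins (Krtap1-1, Krtap13-2l1 and Krtap14l). In P2 and P5 against E18, E20 and P0 limma called 1.63% of all probe sets higher and 1.33% lower, and 0 of these 7 genes. At an unadjusted p below 0.05 there were 2 of 7, and the median difference was 0.44, beside -0.01 for all probe sets. Padi3 had the lowest adjusted p, 0.131, with a difference of 0.82 ± 0.28. Without replicate 3 of E20, 1 of the 7 was called. In P15, P20 and P25 against P2, P5 and P9, where 8.94% were called higher and 7.66% lower, limma called 0 of 7, with 1 at an unadjusted p below 0.05 and a median of -0.09, beside 0.11 for all probe sets.

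Regulators of the hair matrix and placode were lower at the late ages. Of 14 measured, 7 were lower and 0 higher in P15, P20 and P25 against P2, P5 and P9, with a median of -0.51, beside 0.11 for all probe sets. Other tissue lists were lower in the same comparison, with 8 of 8 fibroblast genes, 5 of 8 basal epithelium genes, 5 of 8 adipocyte genes and 2 of 7 endothelium genes lower and 0 higher, and medians of -1.10, -1.36, -1.84 and -0.47. Their part in the regulators' result was not tested. Dlx3, a homeobox activator of shaft and sheath genes in the mouse, averaged 6.14 ± 0.40 at P15 to P25 and 9.05 ± 1.15 at P2 to P9, a difference of -2.90 ± 0.33 (limma, adjusted p = 4.14e-06). Lef1, the nuclear partner of Wnt signalling, differed by -2.61 ± 0.56 (adjusted p = 0.00326), Bmp4, a signal of dermal papilla and matrix, by -2.21 ± 0.41 (adjusted p = 0.00088), and Runx1 by -0.69 ± 0.15 (adjusted p = 0.00317). Against P9 alone, where 1.34% of probe sets were called higher and 1.16% lower, 1 of the 14, Dlx3, was lower, by 2.21 ± 0.47 (adjusted p = 0.0111).

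In P2 and P5 against E18, E20 and P0, 2 of the 14 regulators were higher and 0 lower, with a median of 0.50. Dlx3 differed by 1.48 ± 0.37 (limma, adjusted p = 0.0309) and measured 9.45, 10.55 and 7.82 at P2 and 10.57, 8.24 and 9.72 at P5, with a highest E18 to P0 value of 8.50. Its call was lost without any 1 of replicate 2 of E18, replicates 2 and 3 of E20, replicates 1 and 2 of P0, replicates 1 and 2 of P2, or replicates 1 and 3 of P5, with an adjusted p up to 0.0995. Bmp4 differed by 1.68 ± 0.46 (adjusted p = 0.0465), and its call was lost in 18 of the 27 fits that left out 1 array, with an adjusted p up to 0.128. It was kept only without replicate 1 of E18, replicate 1 of E20, replicate 3 of P2, replicate 3 of P5, replicates 1 and 3 of P9, replicates 1 and 2 of P15 or replicate 2 of P25. Without the 4 arrays high in epidermis markers, 4 of the 14 were higher. In that fit 494 of all 31042 probe sets were called higher and 239 lower, which is the background for the lists below.

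The outer root sheath, companion layer and bulge gave 0 calls of 8 genes in P2 and P5 against E18, E20 and P0 by limma, with 4 at an unadjusted p below 0.05 and a median of 0.52. Without the 4 arrays high in epidermis markers, 1 of 8 was higher, with a median of 0.57. In P15, P20 and P25 against P2, P5 and P9, 4 of 8 were lower and 0 higher, with a median of -1.27, beside -1.36 for basal epithelium and -1.10 for fibroblast genes. Krt17, a keratin of the outer sheath, differed by -2.97 ± 0.48 (adjusted p = 0.000227), Krt15, a keratin of the bulge and of basal cells, by -2.57 ± 0.35 (adjusted p = 4.06e-05), Krt79 by -1.73 ± 0.36 (adjusted p = 0.00273) and Lgr5, a follicle stem cell receptor, by -2.02 ± 0.46 (adjusted p = 0.00504). Krt17 was 12.66 on replicate 2 of P5, its highest value, and Lgr5 was 2.92 there, its lowest among the neonatal arrays. Salivary ducts also express Krt15 and Krt17, and the gland's own part was not tested. Of 8 dermal papilla genes limma called 0 in P2 and P5 against E18, E20 and P0, with 4 at an unadjusted p below 0.05 and a median of 0.46. Without the 4 arrays high in epidermis markers, 1 of 8 was higher, with a median of 0.44. In P15, P20 and P25 against P2, P5 and P9, 2 of the 8 were lower, Tbx18 by 2.00 ± 0.44 (adjusted p = 0.00365) and Wif1 by 1.66 ± 0.41 (adjusted p = 0.00977).

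Skin appendages and pigment cells were measured too. Of 5 sebaceous gland genes 2 were higher in P2 and P5 against E18, E20 and P0, the fatty acid elongase Elovl3 by 2.30 ± 0.42 (adjusted p = 0.00314) and the lipid droplet protein Cidea by 2.00 ± 0.35 (adjusted p = 0.00204). Without the 4 arrays high in epidermis markers the adjusted p of Elovl3 was 0.0524. Adipocyte genes moved with them, 6 of 8 being higher. The sebaceous median was 0.04, with 3 differences above 0 and 2 below. In P15, P20 and P25 against P2, P5 and P9, 1 sebaceous gene was lower and 1 higher. Elovl3 differed by -1.69 ± 0.38 (limma, adjusted p = 0.00474) and Soat1 by 0.85 ± 0.22 (adjusted p = 0.011). Of 7 melanocyte genes 1 was higher, Tyr, the tyrosinase of melanin synthesis, by 1.57 ± 0.38 (adjusted p = 0.023). By limma 6 of the 7 had an unadjusted p below 0.05, and the list median was 1.32. Tyr measured 5.58, 5.77 and 3.72 at P2 and 6.96, 4.27 and 3.43 at P5, with a highest value of 3.73 at E18 to P0. Its call was lost without replicate 1 or replicate 2 of P2, with an adjusted p up to 0.0724, and without the 4 arrays high in epidermis markers the adjusted p was 0.0915. Replicate 3 of P5, among the highest for Tchh, was at base for Tyr. Without those 4 arrays 1 of the 7 melanocyte genes was called higher, with a median of 1.59. In P15, P20 and P25 against P2, P5 and P9, 0 of the 7 were lower, with a median of -0.42. There 1 was higher, Sox10, by 0.99 ± 0.25 (limma, adjusted p = 0.0107), while the other 6 differences were below 0. The gland's own part in Sox10 was not tested.

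Of 19 epidermis genes 1, Sprr1a, was higher in P2 and P5 against E18, E20 and P0, by 5.28 ± 0.98 (adjusted p = 0.00314), and without the 4 arrays high in these markers 6 of 19 were higher and 0 lower, with a median of 1.43. In P15, P20 and P25 against P2, P5 and P9, 6 of 19 were lower, and without those arrays 10 of 19, with a median of -1.54. In that fit 2146 of all 31042 probe sets were called lower and 2436 higher. Those 4 arrays were chosen by these same 19 markers, and most are in the E18 to P0 group. The changes in count without them thus follow in part from the choice, and nothing is read from these changes. The list held Krt1 and Krt10, which were at base on most hair-bearing arrays, together with Sprr1a, which was not.

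**Figure D4:**
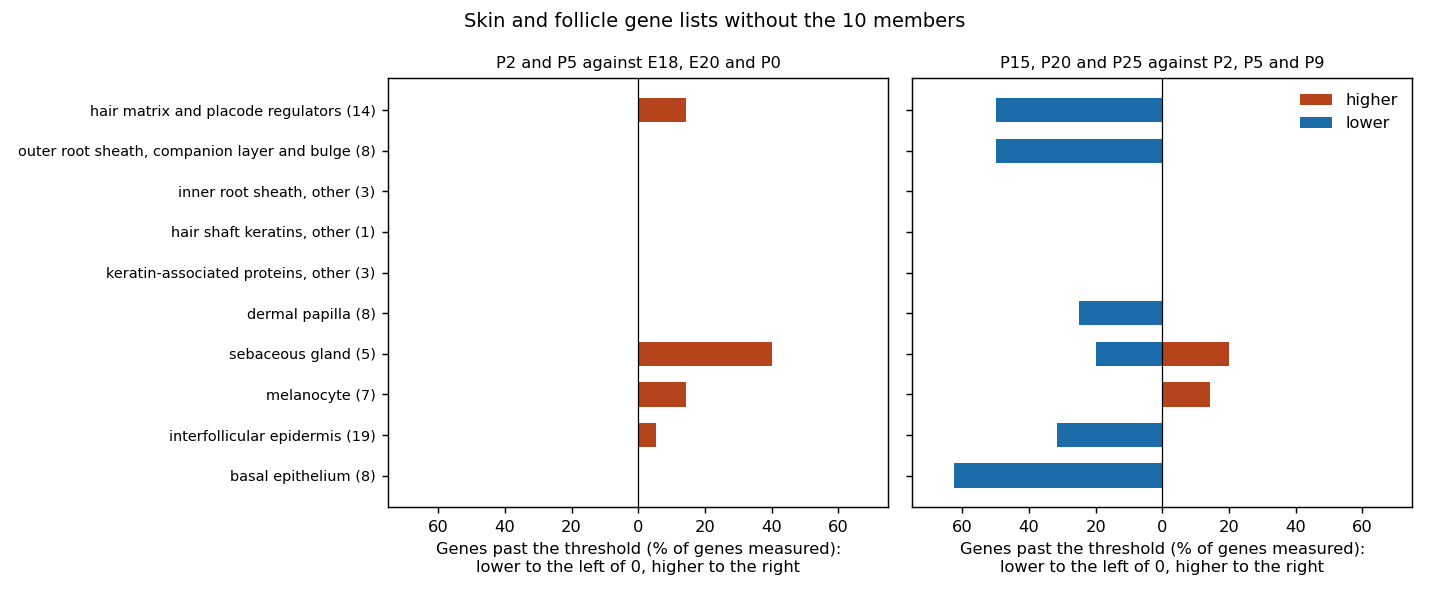
Share of measured genes past the limma threshold (x, percent of genes in the list, higher to the right and lower to the left) for 10 skin and follicle lists (y, number of measured genes in brackets) in P2 and P5 against E18, E20 and P0 (left) and in P15, P20 and P25 against P2, P5 and P9 (right). In the left panel 2 of 14 matrix regulators are higher, and in the right panel 7 of 14 matrix regulators and 4 of 8 outer sheath and bulge genes are lower.

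Genes outside the chosen set were ranked by Pearson's r with the mean profile of the sheath genes and of Krt86, Krt33b, Krtap1-5 and S100a3 over the 27 arrays, as a description. The gene most like both profiles was Vsig8, a membrane protein with an immunoglobulin domain, at an r of 0.834 with the sheath and 0.938 with the shaft. Vsig8 measured 7.14, 10.26 and 6.69 at P2, 7.40, 5.89 and 10.21 at P5, and 10.53, 9.60 and 6.27 at P9, with a highest value of 6.74 at E18 to P0 and 6.92 at P15 to P25. The 4 arrays highest in Vsig8, replicate 2 of P2, replicate 3 of P5 and replicates 1 and 2 of P9, were also high in Krt86, whereas replicate 3 of P9 was high in Krt86 (9.38) with Vsig8 at base. After it came Gpnmb (0.832), Dlx3 (0.805) and Sprr1a (0.799) for the sheath and Ctse (0.817), Lrrc15 (0.806) and Serpina1 (0.795) for the shaft. Likeness over 27 arrays follows age as well as tissue. Smgc, a salivary protein of the newborn gland, had an r of 0.765 with the sheath genes and measured 13.09 on replicate 2 of P5, where Tchh was 6.07. Of the 50 probe sets most like the sheath profile 10 had no gene symbol and are not named here.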

How the data were processed

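Transcripts of laser-captured parotid acinar cells were measured on 27 arrays, 3 per age at 9 ages. The authors deposited 1 log2 value per probe set and array from the robust multi-array average, which corrects background and equalises arrays. Its software is not given in the sources used here. The labels and the study's methods name different RNA kits, and RNA was amplified from small amounts. Arrays have no read depth, and precision is limited by their number.

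Of 31099 probe sets 57 array controls were left out. Gene names came from the platform annotation, with 20826 probe sets paired with 1 symbol, 436 with several and 9780 with none. Of several probe sets of a gene, the one with the highest mean over all arrays was used, and all are given for the 10 genes. Limma 3.58.1 in R 4.3.3 fitted 1 coefficient per age and moderated the variances by empirical Bayes, leaving 18 degrees of freedom. Two-sided p-values were adjusted over 31042 probe sets by Benjamini and Hochberg, with a threshold of 0.05. The fit was tested on simulated data. Replicates are separate litters by the study's methods.

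The genes, gene lists and comparisons were chosen with earlier results of these data known. Named list genes are the 4 with the largest absolute t per list in the first 2 comparisons, apart from those named for a stated limit. Genes named for likeness are the 10 with the highest correlation per profile. Alternatives covered scaling, a filter on low values, array weights, the ages in the fit, the replicate number as a block, each array left out and 2 sets of arrays left out.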

Additional observations from a re-analysis of the deposited data

How the results depend on the processing

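In P2 and P5 against E18, E20 and P0 and in P15, P20 and P25 against P2, P5 and P9 the differences of the 10 genes kept their direction under the 36 alternatives (35 for Lhx2, which fell below the filter on low values). So did those that were over 2 standard errors from 0 in P9 against P2 and P5 (2 genes, Krt86 and Krtap1-5) and in P15, P20 and P25 against P9 (9 genes). Smaller differences changed sign under some alternative in 5 of 8 genes in P9 against P2 and P5 (Tchh, Krt25, Krt33b, S100a3 and Mt4) and in 8 of 10 in P0 against E18 and E20. Counts of probe sets past the limma threshold moved by over 1.5 times in some. With array weights they were 1666 in P2 and P5 against E18, E20 and P0 (920 as reported), 136 in P9 against P2 and P5 (38) and 54 in P0 against E18 and E20 (14). With only the ages of the contrast in the fit, limma called 0 in P9 against P2 and P5 (3765 at an unadjusted p below 0.05), 420 in P15, P20 and P25 against P9 (774) and 2 in P0 against E18 and E20. The cause was not tested. Leaving out each array in turn gave 602 to 1123 for P2 and P5 against E18, E20 and P0, 3909 to 5591 for P15, P20 and P25 against P2, P5 and P9 (5151), 2 to 53 for P9 against P2 and P5, 418 to 837 for P15, P20 and P25 against P9 and 9 to 28 for P0 against E18 and E20. The other follicle genes called were 0 to 1 in the first and 0 to 0 in the second. The lowest counts came without replicate 3 of P5 (602), replicate 3 of P9 (2), replicate 1 of P9 (418) and replicate 3 of P0 (9). Counts also moved by over 1.5 times in P9 against P2 and P5 without replicate 2 (24) or 3 (21) of P2 or replicate 1 (16) or 3 (25) of P5, in P15, P20 and P25 against P9 without replicate 2 of P9 (486), and in P0 against E18 and E20 without replicate 2 (28) or 3 (25) of E18. The labels give no pairing by replicate number. The correlation of same-numbered deviations had a median of 0.014, beside -0.009 for other pairs, and passed 0.1 in 10.2% of 108 pairs. Its highest value was 0.459, and 16 of 27 arrays correlated best with their own number. A median near 0 does not settle whether some arrays of the same number share a factor. A fit with the replicate number as a block gave 947, 5453, 29, 816 and 13 calls, in the order of the leave-out ranges, and 0 other follicle genes were called in either.

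A pair and then a set of 4 arrays were left out after seeing the data. Without replicate 1 of E18 and replicate 2 of P5, chosen first, 62.9% of calls in P2 and P5 against E18, E20 and P0 were higher, against 55.1% as reported. Without the 4 arrays high in epidermis markers this was 67.4%, and P0 against E18 and E20 had 22 calls. The 3 arrays per age, with SDs of up to 3.02 for the sheath mean, limit how small a difference between sheath and shaft genes can be seen.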
